A study of Arabidopsis thaliana with 24 samples.

Results

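The SQUAMOSA PROMOTER BINDING PROTEIN-LIKE (SPL) genes examined here are the Arabidopsis thaliana transcription factor genes whose messenger RNAs are targets of the microRNA miR156. Membership was set by a list of 10 loci and not by a threshold on any measured value. The list was chosen with earlier results of these data known. Of these 10 loci, 9 had a row among the 27782 genes of the deposited table. They are SPL2 (AT5G43270), SPL3 (AT2G33810), SPL4 (AT1G53160), SPL5 (AT3G15270), SPL6 (AT1G69170), SPL9 (AT2G42200), SPL10 (AT1G27370), SPL11 (AT1G27360) and SPL15 (AT3G57920). The tenth, SPL13A (AT5G50570), was not analysed here. All 9 passed the filter on low values, a normalised read count of 10 or more in 3 or more of the libraries compared, in every comparison.

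Poly(A) RNA was sequenced from 14-day-old seedlings of the Col0 background in 24 libraries, 3 per group. The study altered DNE1, a protein with a ribonuclease domain that associates with the decapping machinery, and VARICOSE (VCS), the scaffold of the decapping complex. In batches 1 to 3 the wild type was set beside dne1, the insertion line Salk132521, and beside OE1 and OE2, 2 overexpressor lines that carry P35S-GFP::DNE1. In batches 4 to 6 a further set of wild-type libraries was set beside 3 libraries labelled vcs-6. In batches 7 to 9 another wild-type set was set beside D153N, the line T3_1 carrying 35S:GFP-DNE1_D153N, in which an aspartate of DNE1 is replaced by asparagine. The 35S promoter is active in most plant tissues and the D153N group is a single line. Where nothing in the labels says that libraries of a group came from separate growths, p-values measure only the spread between these libraries.

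Library totals were 36714564 to 70561391 reads in batches 1 to 3 and 22611653 to 53908600 reads in batches 4 to 9. DNE1 itself was at a normalised read count of 1293.86 to 1547.91 in the wild type of batches 1 to 3, 262.766 to 362.316 in dne1, 19552.6 to 23636.5 in OE1 and 17738.6 to 21603 in OE2. It was at 802.432 to 853.822 in the wild type of batches 7 to 9 and at 12986.2 to 19288.7 in D153N. VCS mRNA was higher in the libraries labelled vcs-6, at 7718.67 to 8844.18 against 4604.4 to 5744.76 in their wild type, so the mRNA level does not check that label.

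MiR156 is abundant in young plants and declines with age. It pairs with a site in SPL mRNAs, and the RNA-induced silencing complex built around ARGONAUTE1 then cuts the mRNA or lowers its translation. As miR156 declines, SPL proteins accumulate and drive the passage from juvenile to adult leaves and, with miR172 and its AP2-type targets, the readiness to flower. In seedlings the SPL genes are best known for setting leaf shape, leaf hairs and the rate of leaf initiation.

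The sites are shown because they are what the 10 loci share and what separates the small SPL3, SPL4 and SPL5 from the rest. The mature miRNA, which 6 MIR156 genes encode in identical form, is printed with its seed (bases 2 to 8) in capitals. The other lines give the RNA it would pair with in full and the sites found in the transcripts, and there capitals mark bases that differ from the full complement.
miR156: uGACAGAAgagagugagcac
Full complement: gugcucacucucuucuguca
SPL2, SPL6, SPL9, SPL10, SPL11, SPL13A and SPL15: gugcucUcucucuucuguca
SPL3: UugcuUacucucuucuguca
SPL4: CugcucUcucucuucuguca
SPL5: CCgcucUcucucuucuguca

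Counted from the 5′ end of the site, the 7 loci of the shared form differed from the full complement by A7U alone. SPL3 differed by G1U and C6U, SPL4 by G1C and A7U, and SPL5 by G1C, U2C and A7U. Every difference lay in the first 7 bases of the site, away from the bases opposite the seed.

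In TAIR10.1 the site of SPL9 is at chr2:17589066-17589085 and that of SPL3 at chr2:14305878-14305897, both on the plus strand. The SPL4 site is at chr1:19807090-19807109 on the plus strand, the SPL5 site at chr3:5140598-5140617 on the minus strand and the SPL15 site at chr3:21444834-21444853 on the minus strand. The 7 sites of the shared form lay in the coding sequence, 97 to 403 bases before its end. The SPL5, SPL4 and SPL3 sites lay in the 3′ UTR, 7, 10 and 50 bases past the end of the coding sequence, and that of SPL4 in 1 of its 3 annotated isoforms.

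A search of the transcripts of 27562 coding genes found a site with at most 1 mismatch in 8 genes (0.029%), all of them SPL genes. At most 3 mismatches were found in 13 genes (0.0472%), of which 11 were SPL genes. SPL1, SPL7, SPL8, SPL12, SPL14 and SPL16, the SPL genes outside the list that had a row, had 6 to 8 mismatches at their best match and serve here as relatives without a site. The table held no row for any of 8 MIR156 precursors looked for, so the level of the miRNA was not analysed here.

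**Figure D1:**
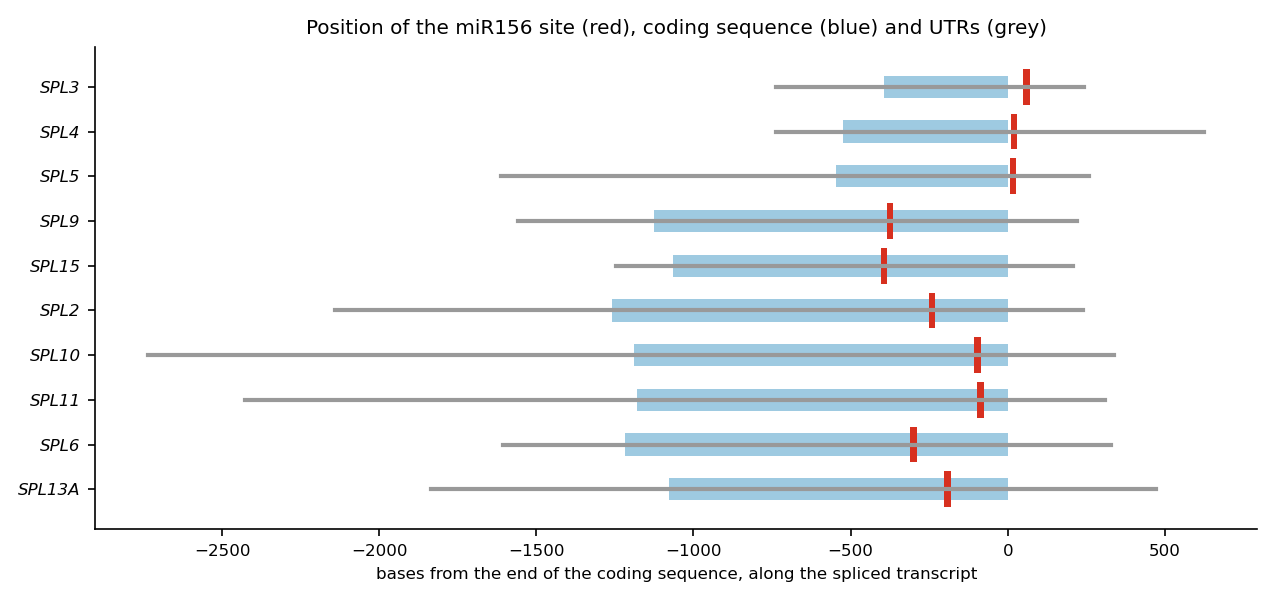
The miR156 site on the transcript of each of the 10 listed SPL loci, with distance in bases from the end of the coding sequence along the spliced transcript, the coding sequence in blue, UTRs in grey and the site in red. The 7 sites of the shared form lie inside the coding sequence and those of SPL3, SPL4 and SPL5 lie just past its end.

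Some reads at these loci may come from the other strand, because neighbouring genes overlap them in antisense and the strand setting of the counting is not given in the sources used here. SPL3 overlapped the long noncoding RNA AT2G33815 over 1046 bases, SPL5 overlapped AT3G15260 over 1959 bases and SPL15 overlapped AT3G57910 over 1793 bases. The precursors MIR156i and MIR156j overlapped SPL4 and SPL9 over 197 and 68 bases. Their annotated products are printed because each is the exact complement of the site it lies opposite, miR156i of SPL4 and miR156j of SPL9, with the seed in capitals.
miR156i: uGACAGAAgagagagagcag
miR156j: uGACAGAAgagagagagcac
Reads from an overlapped gene and its antisense partner cannot be told apart without strand, so values of SPL3, SPL5 and SPL15 are uncertain to that extent. The overlaps given are of whole gene spans, introns included. Of the 31-base words of the transcript, 94.3% for SPL3, 96.5% for SPL15 and 24.3% for SPL5 occurred in transcripts of other genes, on either strand. SPL10 and SPL11 are near relatives, but only 0.919% and 1.07% of their 31-base words occurred in the transcripts of other genes.

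Per kilobase of transcript, SPL3 and SPL2 were the most abundant members in the wild type of batches 1 to 3, at normalised read counts per kilobase of 774.6 ± 620.7 and 745.7 ± 228 (SD, n = 3), and they overlapped. SPL9, a driver of adult leaf identity and a brake on leaf initiation, followed at 393.3 ± 47.1, apart from the next. SPL11 (173.2 ± 15.9), SPL10 (169.9 ± 27.2), SPL5 (164.2 ± 44.9), SPL6 (138.2 ± 9.29) and SPL15 (130.9 ± 21.7) each overlapped their neighbour in this order. SPL4, a small SPL protein gene linked to flowering like SPL3 and SPL5, was lowest at 63.0 ± 20.9. In the other wild-type sets SPL2 was highest and SPL4 lowest, at 534 and 18.8 in batches 4 to 6, where SPL2 overlapped SPL3, and at 912 and 34.3 in batches 7 to 9, where it did not. In the libraries labelled vcs-6 the lowest member was SPL5, at 7.46 ± 2.36 per kilobase, below SPL15 at 18.98. In D153N the mean of SPL3 (762) lay above that of SPL2 (559), with libraries that overlapped. The batches 1 to 3 libraries were normalised apart from the others, so levels are set beside each other only within a set.

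**Figure D2:**
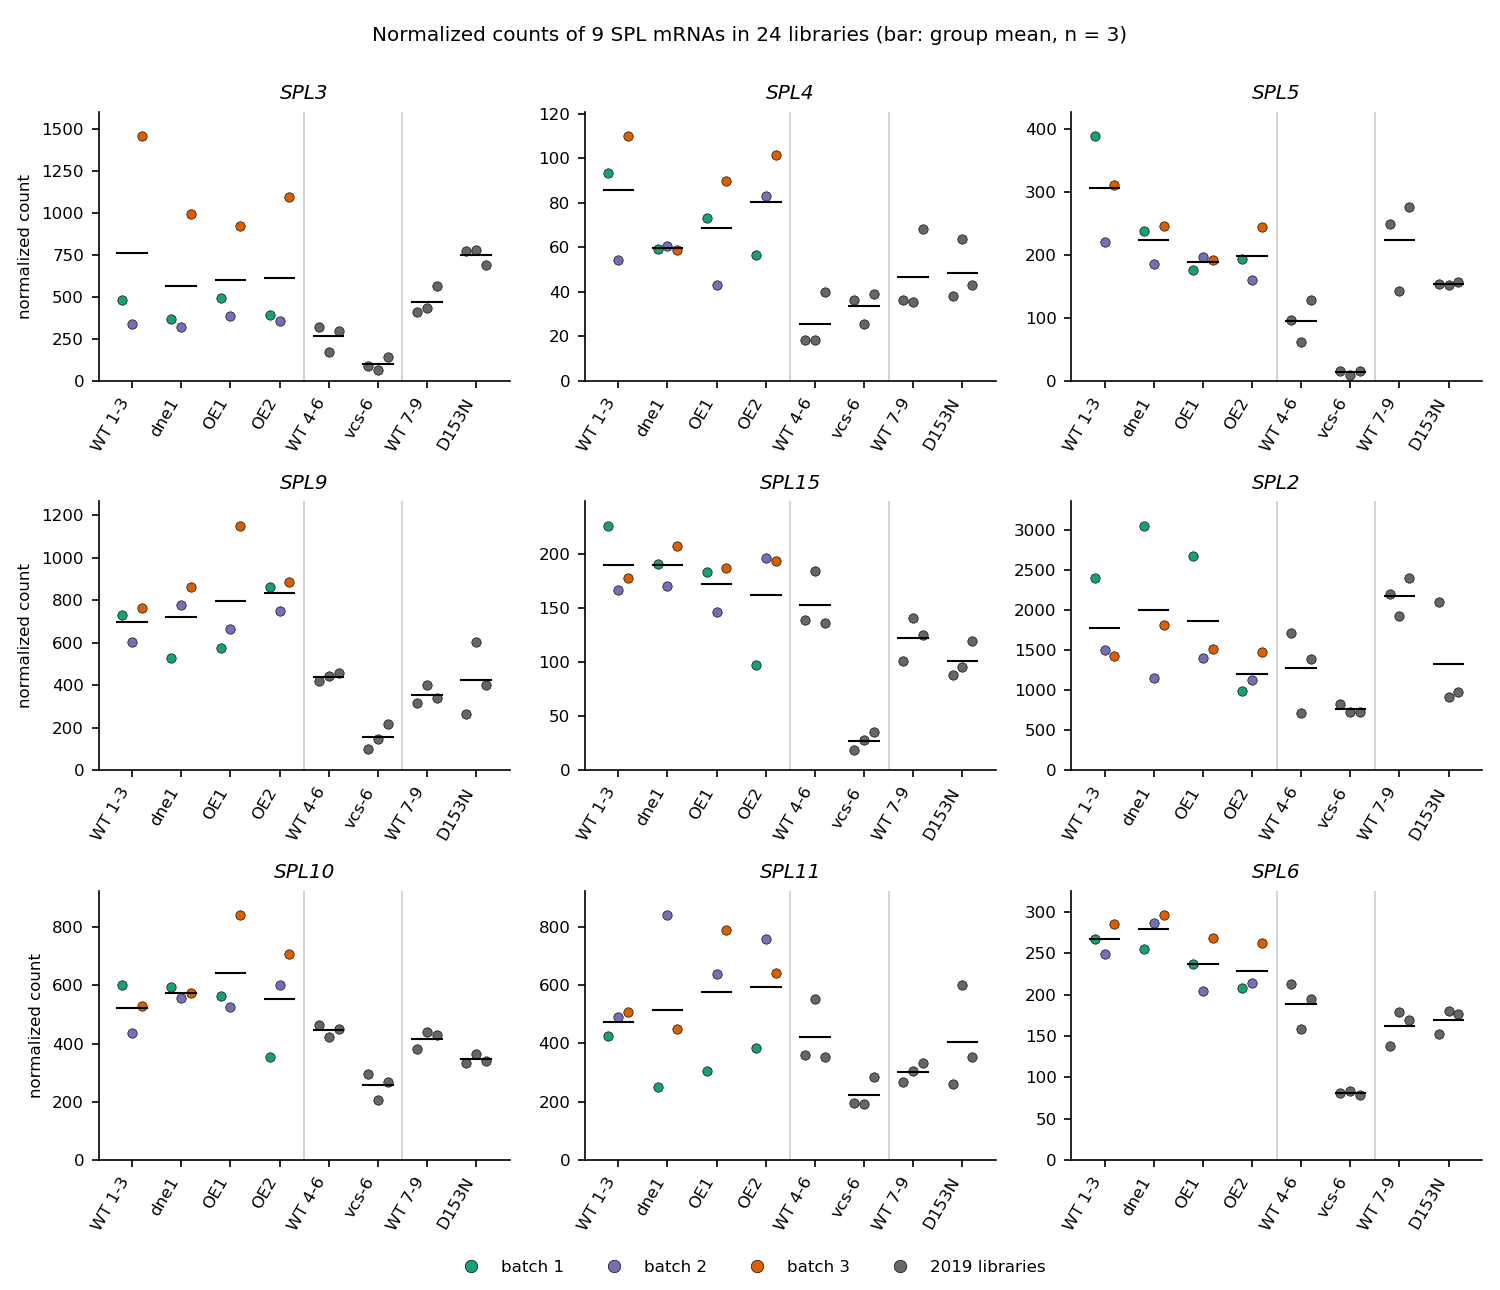
Normalised read count (linear axis from 0) of each of the 9 SPL genes in each of the 24 libraries, by group, with points for libraries, coloured by batch in batches 1 to 3, and bars for the group mean. SPL5, SPL15, SPL9, SPL3 and SPL6 lie lower in the libraries labelled vcs-6 than in their wild type, and SPL3 splits by batch in batches 1 to 3.

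The comparison of vcs-6 with its wild type asks how mRNA levels differ when the decapping scaffold is altered. In these libraries 7 of the 9 SPL genes were lower and 0 were higher, at an adjusted p under 0.05 in limma. Over all genes tested, 24.8% were lower and 26.7% were higher. The median log2 change of the 9 genes was -1.20, and that of all genes 0.003. The groups did not overlap, with every vcs-6 library below every wild-type library, for 7 of the 9, beside 30.6% of all genes. In whole seedlings, fewer cells of a type and less RNA per cell cannot be told apart.

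SPL5, which promotes flowering at the shoot tip, had normalised read counts of 96.8, 61.5 and 129.3 in the wild type and of 16.5, 8.9 and 16.5 in the libraries labelled vcs-6. All 3 vcs-6 libraries lay far under the lowest wild-type library. The log2 change was -2.68 ± 0.37 (SE; limma adjusted p = 0.00073), 6.41-fold lower. AT3G15260, the gene antisense to SPL5, moved the other way, from 334.3, 387.3 and 399.6 in the wild type to 646.7, 721.2 and 738.1 (log2 change 0.91, limma adjusted p = 0.00073).

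SPL15, which acts with SPL9 in the change to adult leaves and promotes flowering in the shoot meristem, was at 138.8, 184.5 and 136.3 in the wild type and at 18.7, 28.2 and 36.0 in vcs-6. The groups were far apart, and the difference was -2.46 ± 0.28 on the log2 scale (limma adjusted p = 0.0003), 5.51-fold lower. AT3G57910 on the other strand differed by -0.43 (limma adjusted p = 0.16). SPL9 was at 421.3, 443.4 and 459.6 in the wild type and at 100.1, 148.9 and 219.8 in vcs-6. Its wild-type libraries lay close together while the vcs-6 libraries were spread, all below them, with a log2 change of -1.56 ± 0.27 (limma adjusted p = 0.00199). SPL9 and SPL15 are closely related genes with overlapping roles.

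SPL3, the small SPL gene best known as a miR156 target in its 3′ UTR, was at 323.6, 171.5 and 299.7 in the wild type and at 90.2, 67.6 and 142.0 in vcs-6. The highest vcs-6 library was below the lowest wild-type library. The log2 change was -1.41 ± 0.33 (limma adjusted p = 0.0093), 2.66-fold lower, and the antisense RNA AT2G33815 differed by -0.47 (limma adjusted p = 0.44). SPL4, the third small gene, had counts of 18.6, 18.3 and 40.0 in the wild type and 36.3, 25.8 and 38.9 in vcs-6. These groups overlapped, and the difference of 0.45 had an interval of -0.41 to 1.32 (95%; limma adjusted p = 0.34).

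SPL6, a gene linked in Arabidopsis to innate immunity, was at 213.1, 158.6 and 195.1 in the wild type and at 81.4, 83.7 and 78.8 in vcs-6. The vcs-6 libraries lay within a narrow band under all wild-type libraries, 2.29-fold lower (log2 change -1.20 ± 0.17, limma adjusted p = 0.00095). SPL10, which acts with SPL2 and SPL11 in leaf and lateral organ form, was at 462.4, 421.8 and 451.3 in the wild type and at 294.8, 205.3 and 268.4 in vcs-6. The groups did not overlap, and the log2 change was -0.81 ± 0.16 (limma adjusted p = 0.0043). SPL11 was at 360.7, 552.4 and 355.0 in the wild type and at 196.9, 190.8 and 285.9 in vcs-6, again with no overlap. Its change of -0.90 ± 0.23 (limma adjusted p = 0.0135) was no longer called without the vcs-6 library at 190.8 (adjusted p = 0.0527) or when all 24 libraries shared 1 fit (0.0612).

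SPL2 was at 1710.6, 717.4 and 1388.1 in the wild type and at 832.6, 727.7 and 725.4 in vcs-6. The wild-type library of batch 5 lay at the level of the vcs-6 libraries while the other two lay above, and the difference of -0.65 was not called (95% interval -1.33 to 0.03, limma adjusted p = 0.097). Without that wild-type library the difference was -1.02 (limma adjusted p = 0.000844), and DESeq2 called it with all libraries (-0.75, adjusted p = 0.0207; DESeq2 called 25.5% of all genes lower). The authors' deposited table gives SPL2 a log2 change of -0.68 and an adjusted p of 0.0543 in vcs-6. The order of the changes thus ran from SPL5 and SPL15 through SPL9, SPL3 and SPL6 to SPL11, SPL10 and SPL2. The genes with the site in the coding sequence spanned -2.46 to -0.65, and the 3 with the site in the 3′ UTR spanned -2.68 to 0.45.

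**Figure D3:**
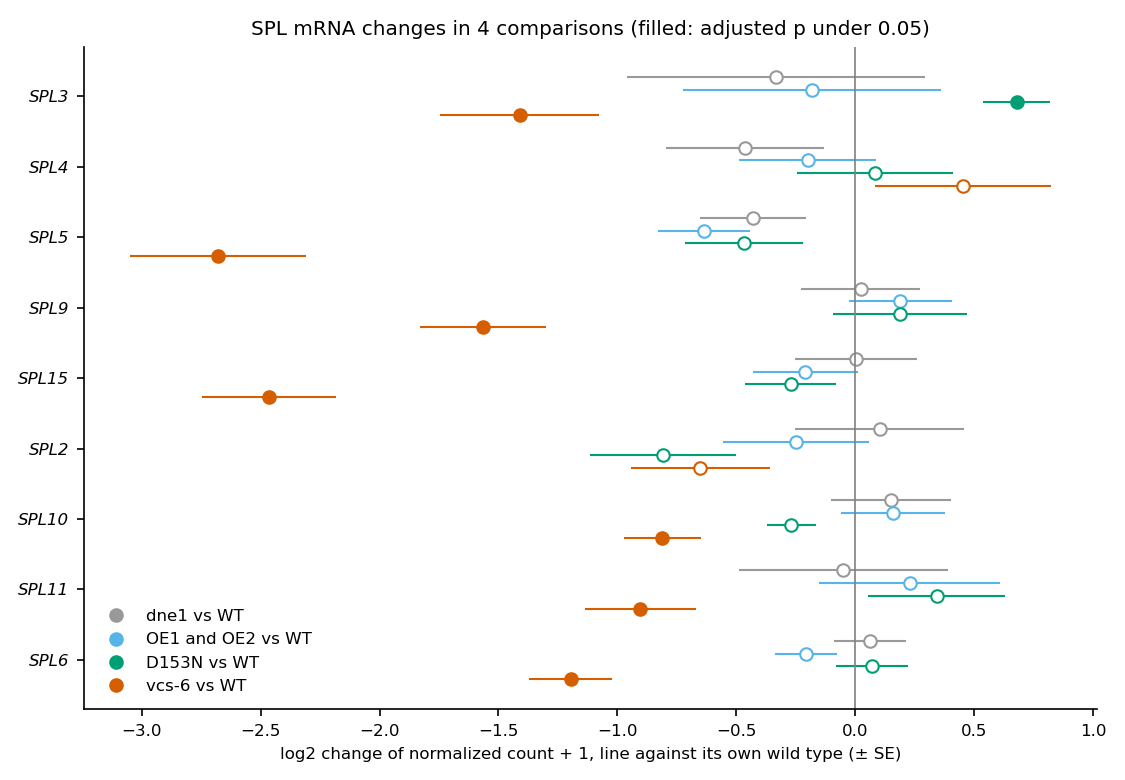
Log2 change ± SE of each of the 9 SPL genes in dne1, the overexpressor lines together, D153N and vcs-6 against the matching wild type, from limma on log2(normalised read count + 1), with filled points for adjusted p under 0.05. For vcs-6, 7 points are filled and below 0, and for D153N only SPL3 is filled, above 0.

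Of the 6 SPL genes without a miR156 site, 4 were lower in vcs-6 and 0 higher, beside the 24.8% of all genes that were lower, and their median log2 change was -0.49. SPL8, needed for pollen sac formation and fertility, was at 143.7, 87.4 and 238.6 in the wild type and at 9.9, 2.4 and 6.8 in vcs-6. Its vcs-6 libraries held only 3 to 9 reads of the gene, so the log2 change of -4.46 ± 0.52 (limma adjusted p = 0.00034) depends on the pseudocount. SPL1 (-0.63, adjusted p = 0.0049), SPL14 (-0.41, adjusted p = 0.0067) and SPL16 (-0.58, adjusted p = 0.0452) were lower in limma, and SPL16 was lost in edgeR (adjusted p = 0.0548) and without the wild type of batch 4 or 6 or the first or second vcs-6 library (up to 0.123). SPL7, the copper response regulator, and SPL12 were not called.

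Most of the tested genes that follow SPL proteins in the pathway were lower in vcs-6. Of the 6 tested genes of the list downstream of SPL, 5 were lower and 1 higher in vcs-6, where 24.8% of all genes were lower and 26.7% higher. AP1 and LFY, which SPL3 activates in flowers, did not pass the filter on low values in this comparison. SOC1, a flowering integrator bound by SPL9, differed by -1.02 (limma adjusted p = 0.0033), and AGL42, a MADS-box gene, by -1.31 (adjusted p = 0.00225). FUL, a MADS-box gene induced by SPL proteins, differed by -2.93 (adjusted p = 0.00065). TCL1 and TRY, the leaf hair repressors that SPL9 activates, differed by -4.45 (adjusted p = 0.00047) and -4.37 (adjusted p = 9e-05), with 0 to 4 reads in each vcs-6 library, so that these sizes depend on the pseudocount. FT, the mobile flowering signal, was higher by 1.89 ± 0.51 (adjusted p = 0.016), a call lost without the second vcs-6 library (adjusted p = 0.0553).

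Of the 6 AP2-type miR172 targets, 2 were higher and 2 lower in vcs-6, shares near the 26.7% and 24.8% of all genes. SMZ (1.09, limma adjusted p = 0.0007) and TOE2 (0.82, adjusted p = 0.0040), repressors of flowering, were higher. SNZ (-2.20, adjusted p = 0.00063) and TOE3 (-1.06, adjusted p = 0.0174) were lower, and TOE3 was no longer called without the wild-type library of batch 6 or the third vcs-6 library (adjusted p up to 0.0556). AP2 and TOE1 were not called. Of the 6 miRNA machinery genes DCL1, HYL1, SE, HEN1, HST and AGO1, 0 were called in vcs-6 by limma or DESeq2, and 0 had an unadjusted p under 0.05 in either. HEN1, which methylates miRNAs, was lower when all 24 libraries shared 1 fit (-0.33, limma adjusted p = 0.0213) and without the second vcs-6 library (-0.45, adjusted p = 0.0425). The authors' deposited table gives HEN1 a log2 change of -0.31 and an adjusted p of 0.0377 in vcs-6.

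**Figure D4:**
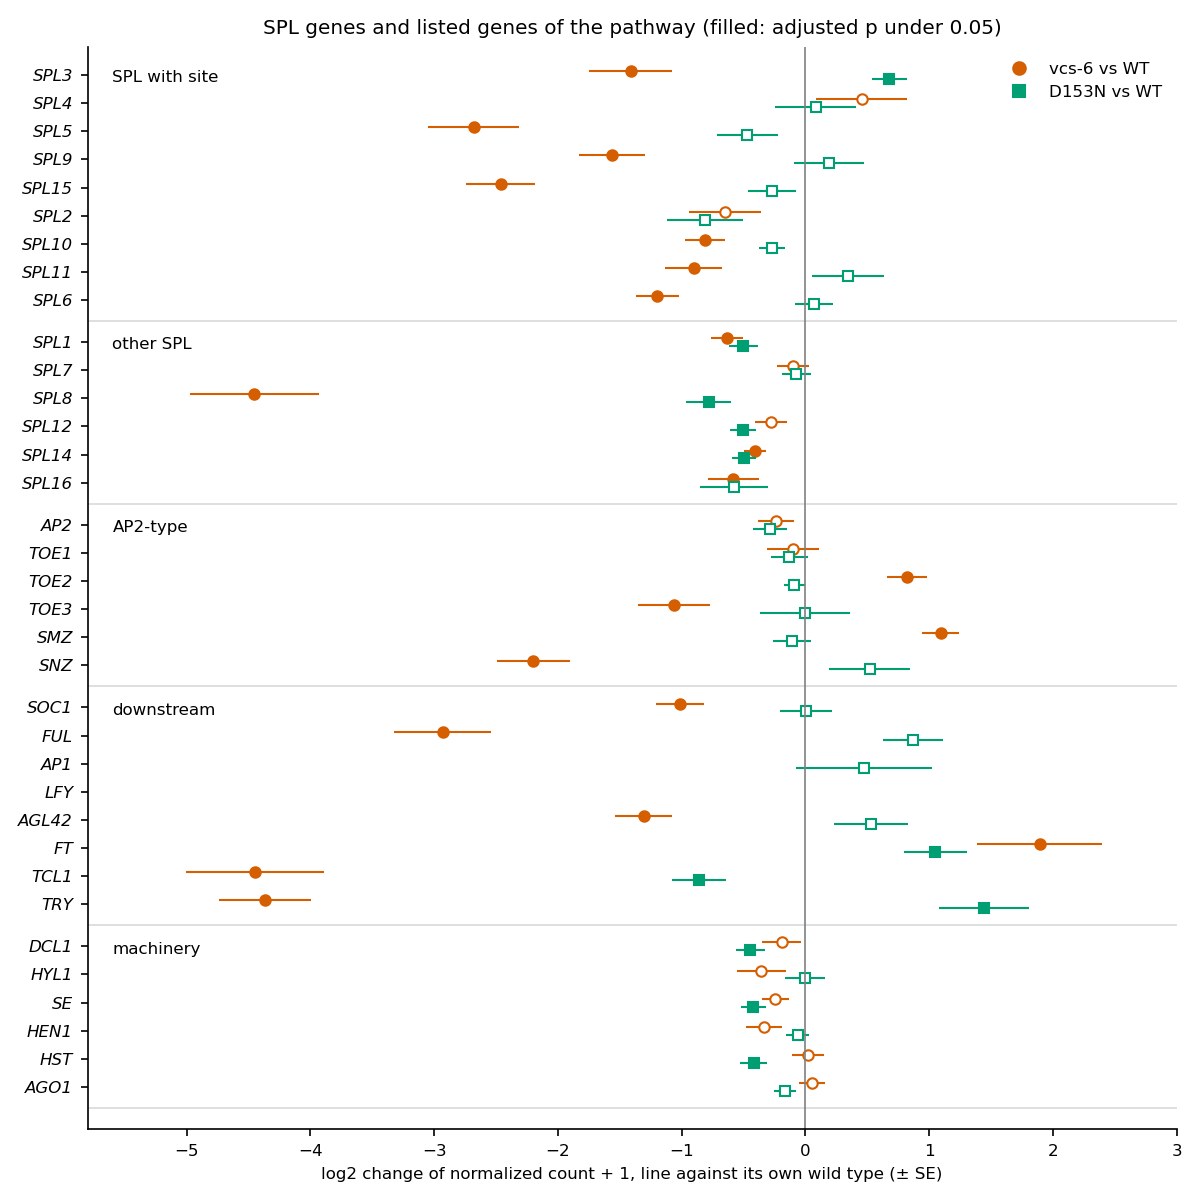
Log2 change ± SE (horizontal axis) of the 9 SPL genes and of the listed genes around them in vcs-6 and D153N against their wild types, with no point where a gene was not tested and filled points for adjusted p under 0.05 in limma. In vcs-6, 8 of the 9 SPL genes and 5 of the 6 tested genes downstream of them lie below 0, and the 6 miRNA machinery genes lie between -0.36 and 0.05.

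The comparison of D153N with its wild type asks what the altered DNE1 does when overexpressed. SPL3 was the only one of the 9 genes called, and it was higher. Over all genes tested 9.09% were higher and 6.84% were lower, or 1920 and 1445 genes. Scaling by library size only gave 2161 and 691, and leaving out the wild-type library of batch 9 gave 640 and 114, the fewest of the 6 fits without a library. SPL3 was at 412.8, 432.7 and 566.2 in the wild type and at 772.6, 778.6 and 691.6 in D153N. All D153N libraries lay above all wild-type libraries, and SPL3 was higher in 3 of 3 batch pairs. SPL6 was also higher in 3 of 3 pairs, and SPL2, SPL10 and SPL15 were lower in 3 of 3, with no call in this fit. The share of all genes with such pairs was not computed. The log2 change was 0.68 ± 0.14 (limma adjusted p = 0.0241), 1.60-fold higher.

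The SPL3 call was not stable. It held in edgeR, in DESeq2, with scaling by library size only and with the other filters and pseudocounts. It also held without the wild-type library of batch 9 or D153N replicate 13, but not in the fits that follow. With batch as a block the adjusted p was 0.0514 and 0 of the 9 genes were called, while 6.46% of all genes were higher in that fit. Leaving out the wild-type library of batch 7 or 8 gave adjusted p of 0.073 and 0.0789, and leaving out D153N replicate 14 or 15 gave 0.0647 and 0.0603. With all 24 libraries in 1 fit the adjusted p was 0.419. The authors' deposited table gives SPL3 a log2 change of 0.63 and an adjusted p of 0.0691 for D153N. In that comparison 20% of all genes had all D153N libraries above all wild-type libraries, as SPL3 did.

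SPL10 was the only member whose D153N libraries all lay below the wild type, beside 19.5% of all genes. It was at 382.5, 438.5 and 430.3 in the wild type and at 331.8, 363.8 and 341.3 in D153N, a difference of -0.27 that was not called (limma adjusted p = 0.12). SPL2 was at 2192.3, 1917.7 and 2401.0 in the wild type and at 2100.7, 917.4 and 972.5 in D153N. Replicate 13 of D153N lay within the wild-type range and the other two far below. The SPL2 difference of -0.81 was not called (limma adjusted p = 0.117), and without replicate 13 it was -1.19 (adjusted p = 0.0058).

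SPL5 was at 250.3, 142.6 and 277.2 in the wild type and at 153.9, 153.2 and 157.6 in D153N. The wild-type library of batch 8 lay below all D153N libraries and the other two above. The difference was -0.47 (limma adjusted p = 0.233), and without that wild-type library it was -0.76 (adjusted p = 0.0393). SPL9, SPL11, SPL15, SPL6 and SPL4 differed by 0.19, 0.34, -0.27, 0.07 and 0.08 and were not called. The median of the 9 genes was 0.07.

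Among the SPL genes without a site, 4 of 6 were lower in D153N, beside 6.84% of all genes. SPL8 differed by -0.78 (limma adjusted p = 0.032), SPL12 by -0.50 (0.023), SPL14 by -0.50 (0.021) and SPL1 by -0.50 (0.036). With batch as a block SPL1 was no longer called (adjusted p = 0.0504), leaving 3 of 6, beside 760 of 21124 genes. Each of the 4 was called in only 1 or 2 of the 6 fits that left out a library. The authors' deposited table gives adjusted p of 0.0905 for SPL8, 0.0016 for SPL12, 1.73e-06 for SPL14 and 0.0034 for SPL1. Downstream of SPL, TRY was higher by 1.45 (adjusted p = 0.041), a call kept under the block (0.0308). It was lost with all 24 libraries in 1 fit (0.0546), without the wild type of batch 7 or 9 (0.102 and 0.133) and without D153N replicate 14 or 15 (0.106 and 0.113). FT (1.05, adjusted p = 0.037) and TCL1 (-0.86, adjusted p = 0.041) were called without the block and lost with it (0.0531 and 0.0666). FUL (0.87) missed the threshold in limma (adjusted p = 0.0518) and was called with the block (0.0408), in edgeR (0.0492), in DESeq2 (0.0103) and without D153N replicate 13 (0.0178). SNZ was called with the block (0.52, adjusted p = 0.0499). DCL1, SE and HST, which make or export miRNAs, were lower by limma (-0.44, -0.42 and -0.42) and lost with the block (adjusted p of 0.0629, 0.0604 and 0.0585). The calls of FT, TCL1, DCL1, SE and HST each held in only 1 or 2 of the 6 fits that left out a library. In the authors' deposited table the adjusted p for D153N is 0.0318 for DCL1, 0.0031 for SE and 0.0112 for HST. It is 0.0058 for TRY, 0.0149 for TCL1 and 0.0764 for FT.

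In dne1, OE1, OE2 and the 2 overexpressor lines together, limma called 0 of the 9 SPL genes, as did edgeR and DESeq2. Only SPL5 had an unadjusted p under 0.05 in limma, in OE1 (0.012), in OE2 (0.0195) and in both together. Limma called 0.0185% of all genes in dne1, 0.139% in OE1, 0.171% in OE2 and 0.365% in the lines together, and 352, 1488, 1378 and 1864 genes had an unadjusted p under 0.05. These were 4, 30, 37 and 79 genes, and with batch as a block limma called 4, 268, 253 and 534, still with 0 of the 9 SPL genes. For the lines together DESeq2 called 337 genes, and limma called 14 without the wild-type library of batch 1. The 9 genes had median log2 changes of 0.00 in dne1, -0.14 in OE1, -0.22 in OE2 and -0.20 in the lines together. The precision differed between members: in dne1 the 95% interval of SPL3 ran from -1.71 to 1.04 and that of SPL6 from -0.27 to 0.39. Of the 8 listed genes downstream of SPL, limma called 0 in the lines together without the block. FT was called there with the block (1.19 higher, limma adjusted p = 0.0487) and by DESeq2 (1.18, adjusted p = 0.0168). The authors' deposited table gives FT a log2 change of 0.83 and an adjusted p of 0.000135 in the overexpressors.

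Among the 9 genes, SPL5 had the smallest unadjusted p over both overexpressor lines. It was at 389.1, 221.2 and 311.8 in the wild type of batches 1 to 3, at 175.9, 197.1 and 192.5 in OE1 and at 193.5, 160.1 and 244.0 in OE2. All OE1 libraries lay below the wild type, as did 5.35% of all genes, and OE2 overlapped it in 1 library. The log2 change over both lines was -0.64 ± 0.19, with a 95% interval of -1.06 to -0.21 and an unadjusted p of 0.0069, and it was not called (limma adjusted p = 0.30, and 0.0633 with batch as a block). It was lower than the wild type of its batch in 6 of 6 overexpressor libraries and in 3 of 3 dne1 libraries. DESeq2 gave an adjusted p of 0.0757, and the authors' deposited table gives a log2 change of -0.53 and an adjusted p of 0.0037. SPL6 was also lower in 6 of 6 overexpressor libraries than the wild type of its batch, by -0.37 to -0.09, with a change over both lines of -0.21 that was not called. The pairs of SPL5 and of SPL6 all used the same 3 wild-type libraries, so they are not independent of each other. The share of all genes with such pairs was not computed.

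SPL3 varied more between batches than between these groups. It was at 922.6 to 1458.2 in the 4 libraries of batch 3 and at 322.6 to 493.5 in the 8 libraries of batches 1 and 2. SPL3, SPL9 and SPL6 were highest in batch 3 in 4 of 4 groups, a pattern that 14.0% of all genes shared. With batches 1 and 2 alone limma called 0 of the 9 genes, as with batch 3 included. Of 21406 genes that fit called only 1 in dne1, 4 in OE1, 9 in OE2 and 17 in the lines together. With so few calls, the result says little about the 9 genes.

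The effects were then set against each other in a fit over all 24 libraries. The vcs-6 effect was lower than the D153N effect for 5 of the 9 genes, beside 13% of all genes. The differences in log2 change were -2.21 ± 0.41 for SPL5 (limma adjusted p = 0.00049), -2.19 ± 0.36 for SPL15 (0.00018), -1.75 ± 0.41 for SPL9 (0.0036), -1.27 ± 0.20 for SPL6 (0.00015) and -2.09 ± 0.73 for SPL3 (0.0405). The SPL3 difference was lost in edgeR (adjusted p = 0.0502) and in 9 of the 12 fits that left out a library (up to 0.0991), all but those without the wild type of batch 5 or 9 or without the third vcs-6 library. SPL8, which has no site, showed a larger difference of -3.67 (limma adjusted p = 0.00016).

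The vcs-6 effect was lower than the mean effect of the overexpressors for 5 of the 9, beside 17.1% of all genes: SPL15 by -2.25 ± 0.34 (limma adjusted p = 3.86e-05), SPL5 by -2.04 ± 0.38 (0.00035), SPL9 by -1.75 ± 0.38 (0.0014), SPL6 by -0.99 ± 0.19 (0.00048) and SPL10 by -0.97 ± 0.27 (0.0094). SPL3 (-1.23, adjusted p = 0.175) was called only without the wild-type library of batch 3 (-1.84, 0.029). SPL11 (-1.13, adjusted p = 0.0985) was called without the OE1 library of batch 1 (0.0382) and by DESeq2 (0.0478).

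The D153N effect differed from the overexpressor effect for 0 of the 9 genes in limma, edgeR or DESeq2, and 0 had an unadjusted p under 0.05 in limma. Over all genes 2.15% were called in limma. With batch as a block SPL3 passed, at 0.86 ± 0.21 (limma adjusted p = 0.0395), and 3.47% of all genes were higher in that fit. The block fit also left out vcs-6 and its wild type, so the block was not the only change. SPL3 thus had a call in D153N without the block and in this difference with it.

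The genes most like 3 members over the 24 libraries, among 20769 genes, are given as a description. Pearson's r was taken on log2 values minus the mean of the wild-type libraries of the same set. It therefore measures shared differences from wild type, those of vcs-6 included, and not shared levels. The libraries share batches and 2 normalisations, which enter these values. For SPL9 they were LPAT5 (0.968), AT1G27120 (0.959) and RGF9 (0.958). For SPL15 they were AT2G47230 (0.975), ABCD2 (0.966) and AT3G15520 (0.966). For SPL3 they were HMGB1 (0.918), NSI (0.874) and AT1G24148 (0.872).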

How the data were processed

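The members and gene lists were chosen with earlier results of these data known, and every gene of these lists could be named. Per the labels' protocols, TRIZOL served for extraction and Lexogen's SENSE kit for mRNA libraries. The submitters' processing notes name bcl2fastq 2.17.1.14, HISAT2 2.1.0, HTSeq and DESeq2 with TAIR10. The strand setting of the counting is not given in the sources used here. Per the file headers, the deposited signal values are read counts divided by size factors of DESeq2 1.24.0, which the authors set separately for the 2018 libraries (batches 1 to 3) and the 2019 libraries (batches 4 to 9). The authors' deposited table also holds log2 fold changes and adjusted p-values, from DESeq2 per the file headers. A gene missing from 1 of these sets (1208 of 27782 in 2018 and 660 in 2019) entered no comparison that used that set. Recovered reads were whole within 0.001 for 100% of values.

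Log2(normalised read count + 1) was tested with limma 3.58.1 (trend) in R 4.3.3, for genes at 10 or more in at least 3 libraries. P-values were adjusted by Benjamini-Hochberg over all genes tested, with a threshold of 0.05, and folds are on this log2 scale, which understates changes of low genes. The dne1, OE1 and OE2 comparisons shared 1 fit of 12 libraries, and the vcs-6 and D153N comparisons had fits of 6. Differences between effects came from a fit of 24, except that the block fit of a difference left out vcs-6 and its wild type. edgeR 4.0.16 on the recovered reads called 10959 genes in vcs-6 and 3475 in D153N, where limma called 10988 and 3365. DESeq2 1.42.0, other filters, pseudocounts and scalings, a batch block and leaving out each library were alternatives. Batches are named in the labels. Deviations of same-batch libraries correlated at 0.137 to 0.682 in batches 1 to 3 (18 pairs; other pairs -0.577 to 0.219) and at 0.0713 to 0.229 in batches 7 to 9 (3 pairs; other pairs -0.328 to 0.170). The tests were run on simulated counts without batch effects, with large changes only and none in low genes. That check does not cover small changes, low genes or batch. Site sequences and coordinates come from RefSeq's TAIR10.1 genome and annotation, searched on the transcript strand.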

Additional observations from a re-analysis of the deposited data

Results flagged for a closer look

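Effects of different lines against their own wild types differed for several SPL genes, by limma's test of the difference over 24 libraries. The log2 change in vcs-6 minus that in D153N was -2.09 for SPL3, -2.21 for SPL5, -1.75 for SPL9, -2.19 for SPL15 and -1.27 for SPL6. Of all genes 13% were lower in this difference. The SPL3 difference was lost in edgeR (adjusted p = 0.0502) and in most fits that left out a library. The log2 change in vcs-6 minus the mean change of OE1 and OE2 was -2.04 for SPL5, -1.75 for SPL9, -2.25 for SPL15, -0.97 for SPL10 and -0.99 for SPL6, where 17.1% of all genes were lower. The lines are in different batches by their labels, and those of 2018 were normalised apart. The part of batch in these differences therefore cannot be told apart from the lines beyond what the matching wild types remove.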

How the results depend on the processing

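Of 1600 values of the 9 SPL genes under other settings, 1568 stayed on their side of the threshold, 24 lost a call, 8 gained one and 0 called values changed sign. Among the 1568 were 80 whose sign differed with a call in neither fit. For the other named genes, 5385 of 5570 stayed on their side, 249 of them with another sign and a call in neither fit, while 147 lost a call, 38 gained one and 0 called values changed sign. The count of SPL genes called in D153N fell from 1 to 0 with all 24 libraries in 1 fit, with the replicate block and with a minimum log2 change of 1, and ran from 0 to 2 when each library was left out. In the D153N effect minus the overexpressor effect the count went from 0 to 1 with the replicate block, in a fit that also left out vcs-6 and its wild type. In the vcs-6 effect minus the overexpressor effect it went from 5 to 3 with a minimum log2 change of 1. The block on batch changed no other call of the 9 SPL genes. No paired analysis was possible for vcs-6 because its deposited columns carry no batch. Scaling by library size only moved the median log2 change of all genes to 0.113 in vcs-6, 0.0965 in D153N and 0.0749 in dne1. In the vcs-6 and D153N effects minus the overexpressor effect that median moved to 0.124 and 0.102. With batches 1 and 2 alone, chosen after seeing the data, 0 of the 9 were called, as with batch 3 included. That fit called at most 17 of 21406 genes in a comparison, so it says little about the 9. A fit on the sum of SPL13A and SPL13B was not run. Beyond these, 3 libraries a group, low counts of SPL4 and of SPL5 in vcs-6, the unknown strand setting and the absence of any miR156 measurement here limit what the values show. The causes of the changed calls were not tested.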
